A study of Mus musculus with 6 samples.

Results

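The 36 genes described here are the endoplasmic reticulum (ER) chaperone, unfolded protein response and ATF4 target genes chosen by name, out of 23284 gene symbols in the count files. All 36 were found in the files, and 35 passed the filter on low counts that left 13390 genes for testing. Poly(A) RNA was sequenced from preSC cells, a mouse line that the labels call a precursor of small cell lung cancer. All cells carried a lentiviral pLKO.1 vector. Controls 1 and 2 carried the empty vector (shEmpty) and control 3 a non-silencing hairpin (shNS), whereas the 3 knockdown libraries carried hairpin 1, 2 or 5 against Crebbp, the gene for the acetyltransferase CBP. The labels name no separate cultures, clones or days, so a p-value here reflects only how these libraries vary, which may be technical, and the knockdown group differs within itself by hairpin. No further genotype, agent or time is given.

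Cells sense unfolded protein in the ER through the kinases PERK and IRE1 and the membrane-bound factor ATF6. IRE1 splices Xbp1 messenger RNA, and XBP1 and cleaved ATF6 raise the transcription of chaperones and of genes for ER-associated degradation. PERK, and the kinase GCN2 when amino acids are short, phosphorylate the initiation factor eIF2, which lowers general translation and favours the translation of ATF4, an activator of genes for amino acid synthesis, uptake and stress signalling. ATF4 and splicing of Xbp1 are therefore controlled largely after transcription, and gene counts do not show them.

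Libraries held 13622020 to 19804949 reads in genes, so that 1 CPM (on the counts-per-million scale, with TMM-normalised library sizes) stood for 13.6 to 19.6 reads. The targeted gene Crebbp stood at 66.2, 69.6 and 69.4 CPM in controls 1, 2 and 3, compared with 46.2, 58.3 and 48.9 CPM with hairpins 1, 2 and 5 (log2 fold change -0.42 ± 0.10, SE, adjusted p = 0.0999 in edgeR and 0.0149 in DESeq2), with no overlap between the groups. The 10 neuroendocrine markers checked were present in each library, the lowest value of any of them being 102 CPM, and their summed level was 7865 to 9029 CPM in controls, compared with 6815 to 8638 CPM with hairpins. Single markers differed in direction within that sum: Calca stood at 1592 to 2009.5 CPM in controls, compared with 632 to 1161 CPM with hairpins, and Ncam1 at 171 to 213 CPM, compared with 259 to 408 CPM. Chga and Scg2 were lower without overlap, and none of these 4 genes passed in edgeR (adjusted p of 0.0558 for Calca and 0.116 for Ncam1). Chgb was higher by a narrow margin, at 245.0 to 253.9 CPM in controls, compared with 254.4 to 365.2 CPM with hairpins. The other markers of the 10 overlapped between the groups. Among all genes tested, 11% were lower and 11.4% higher without overlap. Of 6 immune markers, 4 had under 10 reads in each library (Emr1 none at all), and the list summed to 3.01 to 5.40 CPM in controls, compared with 3.67 to 5.44 CPM with hairpins. Of 7 fibroblast markers, 4 had under 10 reads or were at 0 in each library (Col3a1 at 0), with sums of 37.4 to 45.8 and 14.4 to 64.0 CPM. The 5 endothelial markers summed to 407 to 439 CPM in controls, compared with 164 to 412 CPM with hairpins, nearly all of it Vwf, and the 5 alveolar and airway markers to 8.83 to 9.75 and 4.56 to 9.12 CPM. The part of these levels in the results was not tested.

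No member passed the threshold between hairpins and controls in edgeR (0 of 35, against 1.25% of all genes tested), and none did in limma-voom. At an unadjusted p under 0.05, 9 members were lower and none higher, against 8.46% of all genes lower and 7.99% higher. DESeq2 called 3 members lower (Hsp90b1, Calr and Pdia6) and none higher, against 3.08% of the genes it tested. The median log2 fold change was -0.09 over the members and 0.01 over all genes tested. Averaged over the 35 members, log2 CPM relative to the control mean was -0.20, 0.0071 and 0.19 in controls 1, 2 and 3 and 0.11, -0.031 and -0.18 with hairpins 1, 2 and 5. The list divided by role. All 14 ER folding genes had a negative fitted fold change, while 11 of the 12 tested genes for ATF4 stress targets, amino acid synthesis and transport had a positive one. Of all 13390 genes tested, 6263 had a negative and 7127 a positive one. The role lists were chosen with earlier results of these data known. The mean difference over those 12 genes was 0.20, and it was -0.054 without control 1, 0.035 without the hairpin 1 library and 0.44 without control 3. These are bulk counts, so fewer cells with a transcript and less transcript per cell cannot be told apart.

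**Figure D1:**
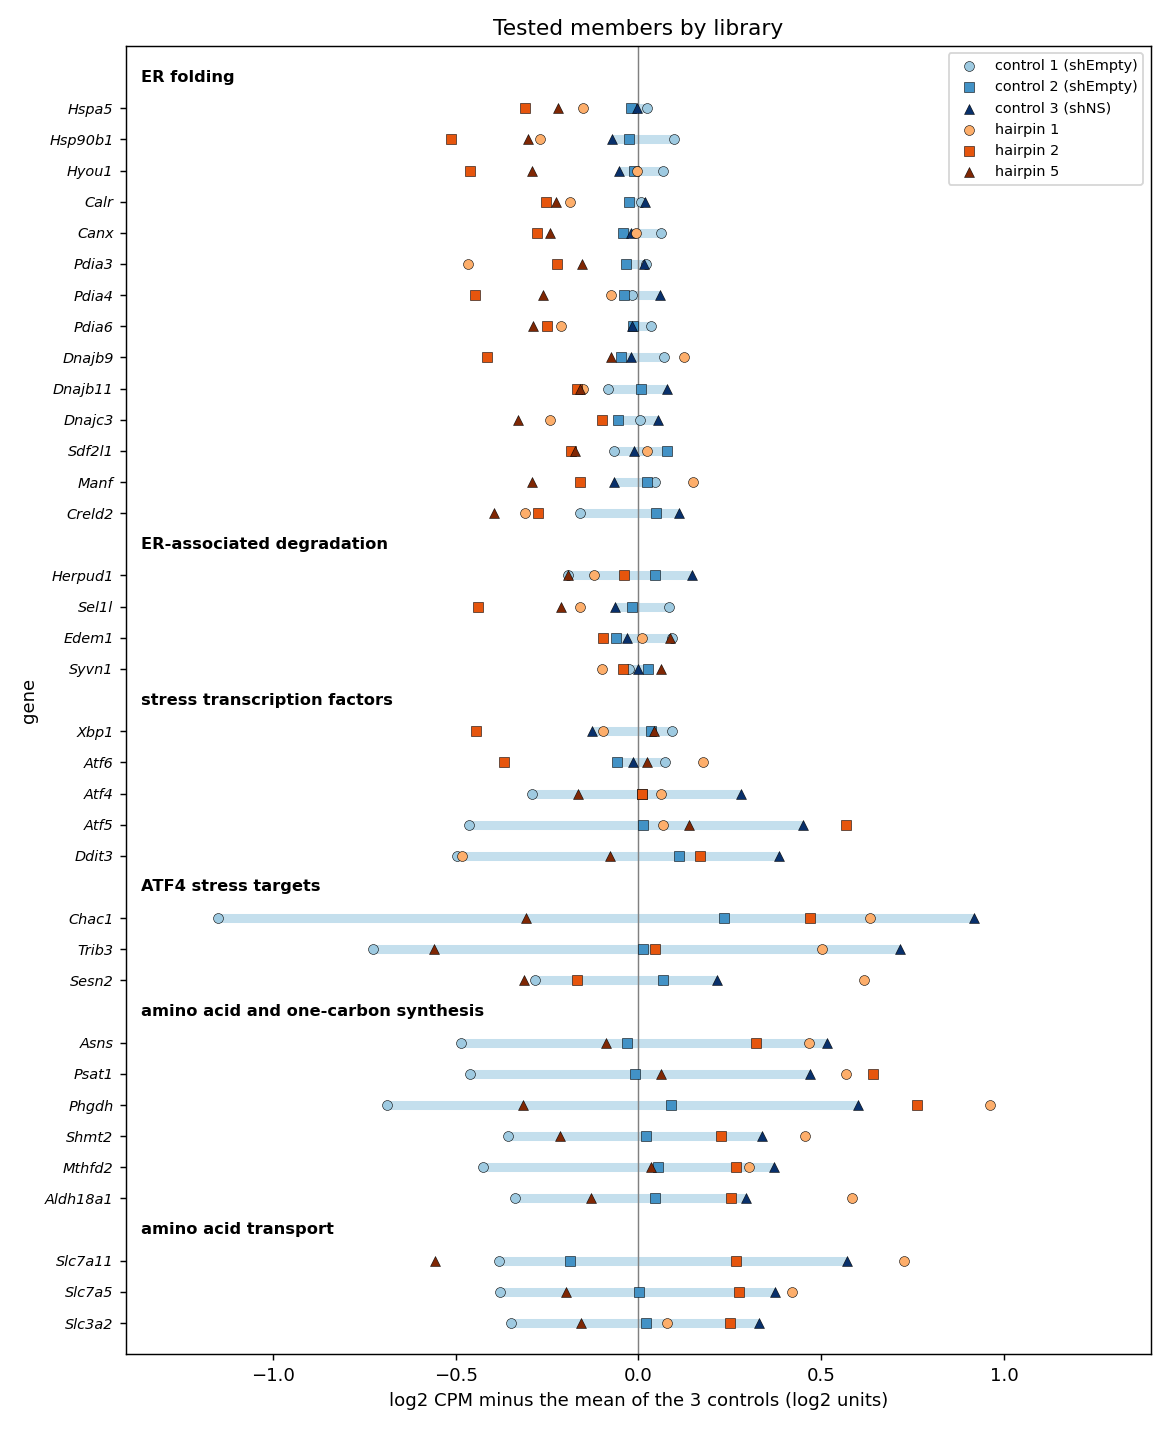
Each row is 1 of the 35 tested members, grouped by role; points show log2 CPM in each of the 6 libraries minus the mean of the 3 controls, and the pale bar spans the controls. The ER folding genes have narrow bars with most hairpin points to the left. The ATF4 stress target, amino acid synthesis and transport genes have wide bars that hold most hairpin points. Between them, the degradation genes have narrower bars (median 0.15 log2 units), and bars of the stress transcription factors range from 0.13 to 0.91.

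The ER folding genes differed little among the controls and were lower with hairpins in their mean. Averaged over the 14 genes, log2 CPM relative to the control mean was 0.0073, -0.012 and 0.0046 in controls 1, 2 and 3 and -0.13, -0.29 and -0.24 with hairpins 1, 2 and 5. Crebbp itself stood at 46.2, 58.3 and 48.9 CPM with hairpins 1, 2 and 5. The hairpins thus ranked in the reverse order for Crebbp, and the reason was not tested. The median log2 fold change was -0.22 over the 14 genes. In 9 of the 14 (64.3%) each hairpin library was lower than each control, against 11% of all genes, and in none did they all lie above, against 11.4% of all genes. With hairpins 2 and 5 all 14 genes lay below the control range, and with hairpin 1 this held for 9. Of all 13390 genes tested, 4892, 4931 and 4223 lay below it with hairpins 1, 2 and 5. The count of 9 separate genes thus became 14 without the hairpin 1 library (18.3% of all genes). None of the 14 passed in edgeR (adjusted p from 0.104 to 0.776).

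Hspa5 encodes BiP, the Hsp70 chaperone of the ER that also holds the stress sensors inactive. It stood at 971, 943 and 952 CPM in controls 1, 2 and 3, compared with 860, 771 and 820 CPM with hairpins 1, 2 and 5. The groups did not overlap, and the fitted log2 fold change was -0.23 ± 0.07 (SE, edgeR adjusted p = 0.183), 1.17-fold lower.

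Hsp90b1, which encodes the Hsp90 chaperone GRP94, had the lowest fold change of the list. Its level was 1336, 1229 and 1189 CPM in controls, compared with 1036, 877 and 1014 CPM with hairpins. The lowest control stood above the highest hairpin library, and the log2 fold change was -0.36 ± 0.09 (adjusted p = 0.104 in edgeR and 0.0167 in DESeq2).

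The lectin chaperone gene Calr (calreticulin) stood at 628, 612 and 632 CPM in controls, compared with 548, 524 and 534 CPM with hairpins. Both groups were tight and separate, with a log2 fold change of -0.22 ± 0.07 (adjusted p = 0.166 in edgeR and 0.0387 in DESeq2). Its membrane-bound partner Canx (calnexin) overlapped between groups, at 875, 815 and 827 CPM against 834, 692 and 709 CPM, because hairpin 1 lay inside the control range (log2 fold change -0.17, edgeR adjusted p = 0.406).

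The protein disulfide isomerases form and rearrange disulfide bonds, and the 3 members among their genes, Pdia3, Pdia4 and Pdia6, had no overlap between the groups. Pdia6 stood at 344, 332 and 331 CPM in controls, compared with 289, 282 and 275 CPM with hairpins (log2 fold change -0.25 ± 0.07, adjusted p = 0.131 in edgeR and 0.0223 in DESeq2). Pdia3 stood at 665, 640 and 663 CPM against 475, 562 and 590 CPM (-0.27 ± 0.09, edgeR adjusted p = 0.201), with hairpin 1 the lowest. Pdia4 stood at 99.5, 98.0 and 105 CPM against 95.6, 73.9 and 84.0 CPM (-0.25 ± 0.10, edgeR adjusted p = 0.279), with hairpin 1 the highest of the knockdown libraries.

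The hairpins thus did not hold 1 order over the chaperones. Creld2, a gene for a secreted ER stress protein, stood at 78.8, 91.0 and 95.03 CPM in controls, compared with 71.0, 72.8 and 66.9 CPM with hairpins (-0.33 ± 0.10, edgeR adjusted p = 0.140). Dnajc3, a BiP co-chaperone gene, stood at 114, 109 and 118 CPM in controls, compared with 95.8, 106 and 90.2 CPM with hairpins (-0.22 ± 0.09, edgeR adjusted p = 0.254). Dnajb11, another BiP co-chaperone gene, was also separate, at 139 to 156 CPM in controls, compared with 131 to 133 CPM with hairpins, but with an unadjusted p of 0.0671.

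The other ER folding members overlapped between the groups. Hyou1, the gene for a large Hsp70-like exchange factor of BiP, stood at 366 to 398 CPM in controls, compared with 276 to 379 CPM with hairpins. The remaining genes were Dnajb9, Sdf2l1 and Manf, with log2 fold changes of -0.11, -0.11 and -0.09, and in all of them hairpin 1 lay above hairpins 2 and 5. In Dnajb9 and Manf hairpin 1 also lay above each control, at 60.7 and 197 CPM, compared with highest controls of 58.4 and 183 CPM. Compared per kilobase of the longest annotated transcript, Hsp90b1 was the most abundant member in controls (388 CPM per kb), followed by Calr (286) and Hspa5 (260).

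ER chaperone promoters are known for the ER stress response element (ERSE), which is read by NF-Y at CCAAT and by ATF6 or XBP1 at CCACG. The element searched was CCAAT, 9 bases of any kind, then CCACG, on both strands, in RefSeq promoter windows (GRCm38.p6) of 250 bases before to 50 after each start. A window was found for 32 of the 36 members, and 12 of the 14 ER folding genes. An exact match was present in 7 of those 12 genes and in 0.119% of all 32851 windows. The 7 are printed to show the shared element in the chaperone genes whose values are given above, with the fixed bases of each match in capitals. A match read on the opposite strand appears as CGTGG, 9 bases and ATTGG.
Hspa5, chr2:34772009-34772059, plus strand: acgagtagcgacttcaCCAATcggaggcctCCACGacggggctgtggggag
Hsp90b1, chr10:86705517-86705672, minus strand: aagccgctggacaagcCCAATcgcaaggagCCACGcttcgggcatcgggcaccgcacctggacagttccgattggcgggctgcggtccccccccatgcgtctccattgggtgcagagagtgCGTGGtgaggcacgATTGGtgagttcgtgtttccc
Calr, chr8:84847059-84847109, minus strand: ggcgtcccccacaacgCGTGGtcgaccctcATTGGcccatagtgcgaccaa
Canx, chr11:50325784-50325834, minus strand: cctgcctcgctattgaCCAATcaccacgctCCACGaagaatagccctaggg
Pdia6, chr12:17266475-17266525, plus strand: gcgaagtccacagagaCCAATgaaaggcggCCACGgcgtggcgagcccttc
Dnajc3, chr14:118937811-118937861, plus strand: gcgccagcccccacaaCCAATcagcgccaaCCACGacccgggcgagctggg
Creld2, chr15:88819504-88819554, plus strand: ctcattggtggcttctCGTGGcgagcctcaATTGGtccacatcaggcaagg

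Hsp90b1, the member of lowest fold change, holds 2 matches, with first bases 212 and 107 bases before the start, and Hspa5 holds 1, 65 bases before it. Syvn1, an ER degradation gene, holds the only ERSE match outside the folding genes on the list. The related element ERSE-II (ATTGG, 1 base, CCACG, which shares CCACG with ERSE) was found in Dnajb11 and Herpud1, and in 0.0365% of all windows. All 8 members with an ERSE match had a negative log2 fold change (median -0.22). Of these 8, 7 are ER folding genes, and all 14 ER folding genes had a negative one, so this count adds no separate result. Of 7 tested genes with a match that are no member, 5 had a negative log2 fold change (median -0.06). A match describes the letters of the window and does not show binding.

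Among the 4 members that act in ER-associated degradation, which marks and extracts misfolded proteins, Sel1l alone was separate between groups. Sel1l encodes the adaptor of the HRD1 ubiquitin ligase and stood at 192, 179 and 173 CPM in controls, compared with 162, 134 and 156 CPM with hairpins (log2 fold change -0.27 ± 0.10, edgeR adjusted p = 0.216). Its ligase partner Syvn1 (HRD1) stood at 65.1 to 67.6 CPM in controls, compared with 61.9 to 69.3 CPM with hairpins, and Edem1, a gene for a lectin of the same pathway, at 61.9 to 68.8 and 60.4 to 68.6 CPM. Herpud1, a membrane component of the complex, stood at 73.4 to 92.9 CPM in controls, compared with 73.4 to 81.6 CPM with hairpins. In Syvn1, Edem1 and Herpud1 the groups overlapped, with log2 fold changes of -0.02, -0.0004 and -0.12.

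**Figure D2:**
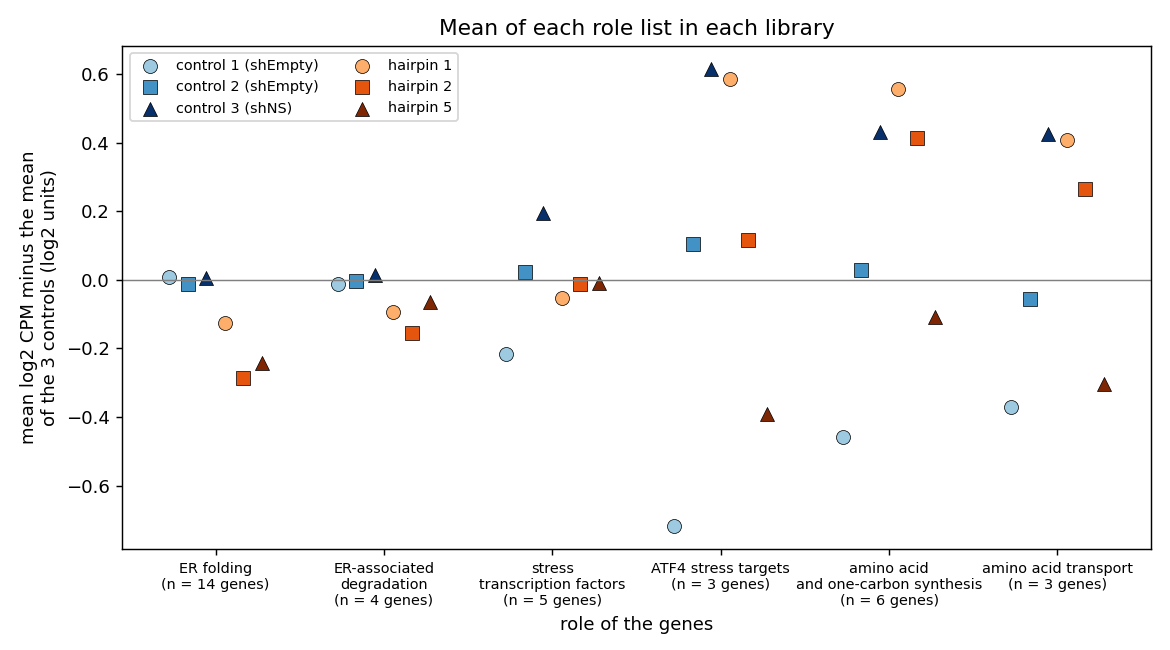
Each point is the mean over the genes of 1 role in 1 library, as log2 CPM minus the mean of the 3 controls. The controls lie together for ER folding (-0.012 to 0.0073) and apart for ATF4 stress targets (-0.72 to 0.62), where hairpins lie between -0.39 and 0.58.

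In all 5 stress transcription factor genes the groups overlapped and the control range exceeded the fitted change. Xbp1, the target of IRE1, stood at 246, 237 and 212 CPM in controls, compared with 216, 170 and 238 CPM with hairpins. Hairpin 2 was low and the others lay within the control range (log2 fold change -0.15 ± 0.13, edgeR adjusted p = 0.617, and -0.03 without the hairpin 2 library). Atf6 stood at 132 to 145 CPM in controls, compared with 106 to 156 CPM with hairpins, again with hairpin 2 the lowest.

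Atf4 encodes the central factor of the integrated stress response. It stood at 401, 494 and 596 CPM in controls 1, 2 and 3, compared with 513, 494 and 438 CPM with hairpins 1, 2 and 5. All hairpin libraries lay within the control range (log2 fold change -0.05 ± 0.14, edgeR adjusted p = 0.920). Atf5, a related factor, stood at 215, 299 and 404 CPM in controls, compared with 310, 438 and 325 CPM with hairpins, with hairpin 2 alone above the range (0.23 ± 0.22, edgeR adjusted p = 0.685). Its fold change was 0.025 without control 1, 0.48 without control 3 and 0.054 without the hairpin 2 library.

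Ddit3, which encodes the stress factor CHOP, stood at 35.9, 54.7 and 66.3 CPM in controls, compared with 36.2, 57.0 and 48.0 CPM with hairpins. Each hairpin library lay within the control range (-0.15 ± 0.23, edgeR adjusted p = 0.823). Its exons overlap those of Mars on the other strand in GENCODE M21. The kit named does not mark strand, so the counts of such pairs are uncertain, and 10 members overlap another gene on either strand, among them Hsp90b1, Pdia3, Pdia6, Atf5 and Shmt2. Calr and Phgdh each have a named pseudogene copy that could share reads.

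The ATF4 targets varied widely among the 3 controls. In all 12 tested genes of the 3 target groups, control 1 was the lowest and control 3 (shNS) the highest of the controls, against 26.2% of all genes tested, and the control range exceeded the fitted change, as it did in 59.9% of all genes. Over these 12 genes the mean log2 CPM relative to the control mean was -0.50, 0.026 and 0.48 in controls 1, 2 and 3 and 0.53, 0.30 and -0.23 with hairpins 1, 2 and 5. The median control range was 0.86 log2 units, compared with 0.11 for the ER folding genes and 0.19 for all genes tested. Depth also differed among the controls, at 19804949, 16446925 and 13687770 gene reads in controls 1, 2 and 3. With hairpins 1, 2 and 5 it was 13622020, 13937299 and 14651158 gene reads. The part of depth in the spread of either group, and in the difference between them, was not tested.

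**Figure D3:**
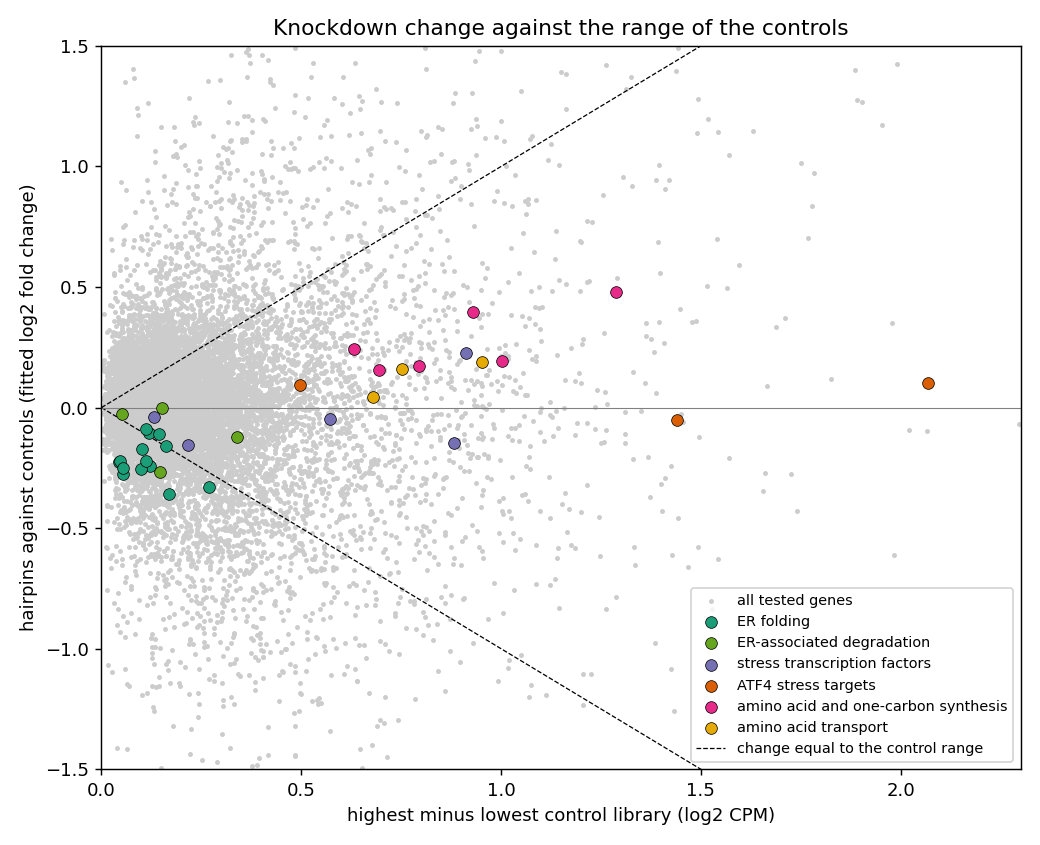
Each point is a gene, with the range of the 3 controls (log2 CPM) across and the fitted log2 fold change of hairpins against controls upwards; grey points are all tested genes that fall within the axes, and points between the dashed lines changed by less than the control range. Of 14 ER folding genes, 10 lie outside the lines below 0, and all 12 ATF4 targets lie between the lines.

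Chac1, whose product degrades glutathione, had the widest control range of the list. It stood at 11.4, 29.9 and 48.2 CPM in controls, with exact 95% Poisson intervals of 9.95 to 12.99, 27.3 to 32.7 and 44.6 to 52.0 CPM. Such intervals cover counting error only. With hairpins 1, 2 and 5 it stood at 39.5, 35.3 and 20.6 CPM. Controls thus differed by 4.23-fold and the hairpin libraries all lay inside them (log2 fold change 0.10 ± 0.45, edgeR adjusted p = 0.950).

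Trib3, a pseudokinase gene of the same response, stood at 26.1, 43.5 and 70.9 CPM in controls, compared with 61.2, 44.6 and 29.3 CPM with hairpins. All hairpin libraries lay within the control range (-0.05 ± 0.37, edgeR adjusted p = 0.968). Sesn2, a sestrin gene, stood at 18.7, 23.8 and 26.4 CPM in controls, compared with 35.0, 20.2 and 18.3 CPM with hairpins, so hairpin 1 lay above the controls and hairpin 5 below them. Vldlr, a lipoprotein receptor gene, had at most 6 reads in any library and was not tested.

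The amino acid and one-carbon synthesis genes followed the same control order. Asns, the asparagine synthetase gene, stood at 161, 221 and 323 CPM in controls, compared with 312, 282 and 212 CPM with hairpins. The 2 groups spanned much the same levels (log2 fold change 0.20 ± 0.24, edgeR adjusted p = 0.762).

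Psat1 and Phgdh encode enzymes of serine synthesis. Psat1 stood at 136, 186 and 258 CPM in controls, compared with 277, 292 and 195 CPM with hairpins (0.40 ± 0.23, edgeR adjusted p = 0.456). Phgdh had the highest fold change of the list, at 43.8, 75.2 and 107 CPM in controls, compared with 138, 120 and 56.7 CPM with hairpins (0.48 ± 0.37, edgeR adjusted p = 0.590). In both genes hairpins 1 and 2 lay above the highest control and hairpin 5 between the controls. With 1 library left out the log2 fold change ranged from 0.19 (without control 1) to 0.66 (without control 3) in Psat1, and from 0.20 to 0.82 in Phgdh without the same libraries.

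The mitochondrial folate genes Shmt2 and Mthfd2 ranged from 162 to 262 and from 108 to 188 CPM in controls, and from 179 to 285 and from 148 to 179 CPM with hairpins. Aldh18a1, a gene of proline synthesis, ranged from 81.1 to 126 CPM in controls and from 93.6 to 154 CPM with hairpins. Hairpin 5 was the lowest knockdown library in all 6 synthesis genes, with a mean of -0.11 against 0.56 and 0.41 for hairpins 1 and 2.

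The transporter genes showed the same order of the controls. Slc7a11, the cystine transporter gene, was the least abundant tested member per kilobase (0.608 CPM per kb) and stood at 4.09, 4.69 and 8.03 CPM in controls, compared with 8.97, 6.48 and 3.61 CPM with hairpins (0.19 ± 0.37, edgeR adjusted p = 0.867). Slc7a5 and Slc3a2 encode the light and heavy chains of a large neutral amino acid transporter. They ranged from 96.5 to 163 and from 113 to 180 CPM in controls, and from 109 to 168 and from 129 to 171 CPM with hairpins.

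**Figure D4:**
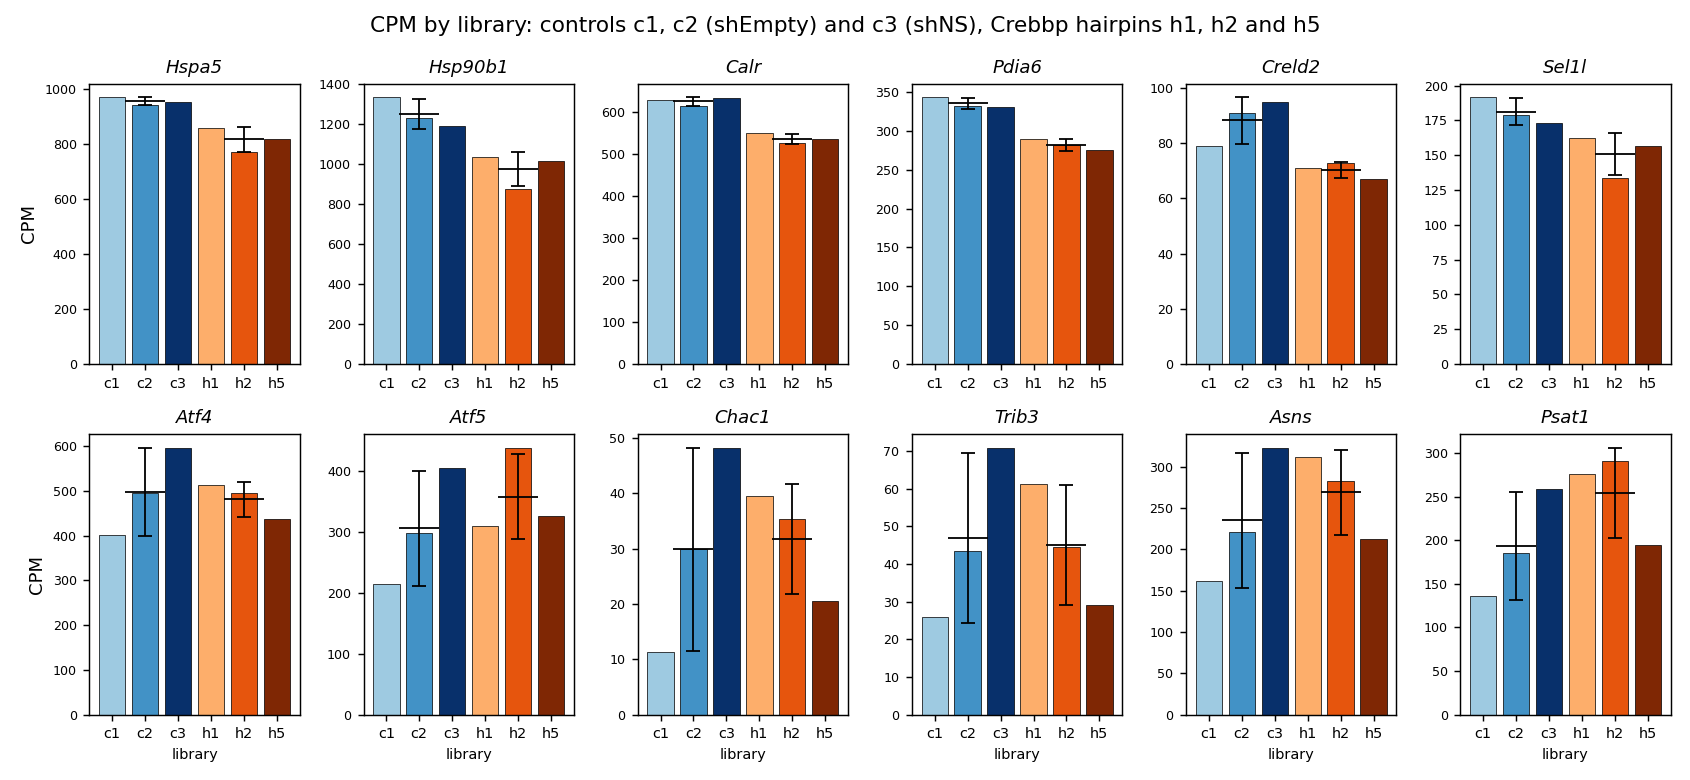
Bars give CPM in each of the 6 libraries for 12 members, and black marks give the mean and SD of each group (n = 3 each). In the upper row the hairpin bars all lie below the control bars. Those genes are among the members named because their groups do not overlap, so this pattern was fixed by that choice. Overlapping members of the same roles, such as Canx and Herpud1, are not shown. In the lower row the controls differ from each other, as for Chac1 (11.4 to 48.2 CPM), and the groups overlap.

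Genes activated by ATF4 are known for the C/EBP-ATF response element (CARE). TGATGNAA, a core of it, was searched on both strands in the same windows, where an opposite-strand match begins with TT and ends with CATCA. It was found in 5 of the 12 target genes with a window (Chac1, Trib3, Vldlr, Asns and Slc7a11), in none of 12 ER folding genes and in 3.97% of all windows. The stretches upstream of the start are printed for 3 genes with values above, with the fixed bases of each match in capitals.
Chac1, chr2:119351033-119351072, plus strand: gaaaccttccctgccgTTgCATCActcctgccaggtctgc
Asns, chr6:7693210-7693248, minus strand: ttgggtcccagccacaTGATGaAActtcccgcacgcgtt
Slc7a11, chr3:50443637-50443695, minus strand: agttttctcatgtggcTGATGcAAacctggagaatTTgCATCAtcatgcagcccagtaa

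Slc7a11 holds 2 matches, on opposite strands, with first bases 66 and 47 bases before the start. Herpud1 holds a match of this core and 1 of ERSE-II in the same window. Among the other tested genes with a TGATGNAA match, 122 had a negative and 130 a positive log2 fold change (median 0.01). The palindrome TGACGTCA, the cyclic AMP response element read by the CREB family, was in no window of a member and in 1.79% of all windows.

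The spread among controls was also set out as a contrast of the shNS library with the 2 shEmpty libraries. No member passed (0 of 35, against 0% of all genes tested), and 6 members had an unadjusted p under 0.05, against 0.747% of all genes. All 12 tested ATF4 targets were higher with shNS, a sign already fixed because the shNS library was their highest control. Their median log2 fold change was 0.62 (range 0.31 to 1.23), and the ER folding genes had a median of -0.01. The 3 members of smallest p were Asns (0.76 ± 0.26), Psat1 (0.69 ± 0.27) and Atf5 (0.66 ± 0.26, SE), all with an edgeR adjusted p of 0.9996. This contrast rests on 1 shNS library, which is assumed to vary like the others, and the shEmpty libraries also differed from each other, as in Chac1.

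Further genes of the same pathways, 72 in 4 lists, were read from the same fit. Of these 70 were tested and none passed in edgeR or limma-voom, with 3 higher and 5 lower at an unadjusted p under 0.05, where all genes tested gave 7.99% higher and 8.46% lower. DESeq2 called 3 lower, against 3.08% of all the genes it tested, so these counts were near the background. The median log2 fold change was -0.17 for 14 further ER folding and export genes, -0.06 for 11 degradation genes, -0.06 for 11 sensors and eIF2 regulators and 0.07 for 34 ATF4 targets.

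Ero1lb, an oxidase gene that recharges protein disulfide isomerases, stood at 93.2, 82.3 and 86.3 CPM in controls, compared with 58.3, 46.6 and 68.7 CPM with hairpins. The groups were separate (log2 fold change -0.59 ± 0.14, adjusted p = 0.0880 in edgeR and 0.00590 in DESeq2), and with 1 library left out the edgeR adjusted p ranged from 0.0356 (without hairpin 5) to 0.350 (without control 1). Fkbp2, a prolyl isomerase gene of the ER, stood at 75.6, 84.1 and 84.7 CPM in controls, compared with 45.8, 75.2 and 64.9 CPM with hairpins (-0.39 ± 0.17, edgeR adjusted p = 0.291). In 5 of the 14 further folding genes (35.7%) the hairpins all lay below the controls, against 11% of all genes. Among further disulfide isomerase genes in that list, P4hb was separate, at 473 to 512 CPM in controls, compared with 404 to 453 CPM with hairpins. Its log2 fold change was -0.18 (edgeR adjusted p = 0.323). Pdia5 overlapped between the groups, at 11.5 to 13.6 CPM in controls, compared with 8.98 to 14.3 CPM with hairpins.

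Slc1a5, a glutamine transporter gene, stood at 124, 131 and 122 CPM in controls, compared with 105, 72.9 and 78.1 CPM with hairpins. The groups were separate (log2 fold change -0.56 ± 0.13, adjusted p = 0.0956 in edgeR and 0.00778 in DESeq2), and with 1 library left out the edgeR adjusted p ranged from 0.0120 (without hairpin 1) to 0.385 (without control 2). Nupr1, a stress-induced chromatin protein gene, stood at 9.86, 11.5 and 16.1 CPM in controls, compared with 2.72, 8.55 and 3.88 CPM with hairpins (-1.30 ± 0.39, adjusted p = 0.159 in edgeR and 0.0199 in DESeq2), again with no overlap, and with 1 library left out the edgeR adjusted p ranged from 0.0425 (without hairpin 2) to 0.436 (without control 2).

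In the sensor list Mbtps2, the gene for the protease that completes the release of ATF6, stood at 20.8, 19.6 and 21.5 CPM in controls, compared with 31.2, 25.004 and 26.2 CPM with hairpins (0.41 ± 0.12, edgeR adjusted p = 0.144). Ppp1r15b, the gene for a constitutive eIF2 phosphatase subunit, had -0.18 ± 0.08 (edgeR adjusted p = 0.321). In the degradation list Os9 was separate between groups, at 162 to 175 CPM in controls, compared with 139 to 159 CPM with hairpins (-0.17 ± 0.08, edgeR adjusted p = 0.375). Derl3 overlapped (-0.59 ± 0.33, edgeR adjusted p = 0.426), with -0.27 without the hairpin 2 library and -0.94 without hairpin 1.

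The control order of the ATF4 target members recurred in the further ATF4 targets. Control 1 was the lowest and control 3 the highest control in 30 of 34 tested genes (88.2%), the exceptions being Wars, Shmt1, Slc1a5 and Slc38a2. Of 12 aminoacyl-tRNA synthetase genes, a subset taken after the values were seen, 11 showed it. Aars, the alanyl-tRNA synthetase gene, stood at 236, 299 and 382 CPM in controls, compared with 394, 323 and 260 CPM with hairpins. Among the ER folding members the same order was seen in 2 of 14.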

How the data were processed

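Libraries were made from 500 ng of total RNA by oligo(dT) selection with a NEBNext Ultra kit, per the labels' protocols. Per the submitters' processing notes, tools were HTSeq 0.6.1, TopHat2 2.0.12 and bcl2fastq 1.8.2, with mouse build mm9. No source used here gives the annotation or the strand setting. The deposited files hold the authors' raw read counts per gene symbol, and the 5 HTSeq summary rows (24.8% to 28.9% of all counts) were left out.

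Counts of all genes were fitted with edgeR 4.0.16 in R 4.3.3 (TMM, filterByExpr, robust quasi-likelihood test, group as the only term), with Benjamini-Hochberg adjustment over 13390 genes and a threshold of 0.05. Log2 CPM values use a prior count of 2. The standard error (SE) is the absolute log2 fold change over the square root of F. The shNS library was compared with shEmpty in a fit with 3 groups over all 6 libraries. Alternatives were DESeq2 1.42.0, limma-voom (limma 3.58.1), other normalizations and filters, a non-robust fit, and leaving out each library. The edgeR fit was tested on simulated data. Transcript lengths and overlaps came from GENCODE M21 (GRCm38), whose coordinates were not used with the counts. One marker gene is not reported here.

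The members, the role lists, the 72 further pathway genes and the rule for named genes were chosen with earlier results of these data known. Under that rule, values are given in full for members called, members whose groups do not overlap at an unadjusted p under 0.05, those of largest and smallest change, the 3 of smallest p between shNS and shEmpty, and 11 members fixed by name.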

Additional observations from a re-analysis of the deposited data

How the results depend on the processing

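With DESeq2 3 members were called lower (Calr, Hsp90b1 and Pdia6), and 3 further pathway genes (Ero1lb, Nupr1 and Slc1a5), in place of 0 for both in edgeR. DESeq2 called 733 genes in all and edgeR 168. The cause was not tested. Over all genes edgeR called 0 to 389 with 1 library left out, 0 without control 1 or without control 2. With 1 library left out, edgeR called 0 members in each case and 0 to 1 further genes, and the number of ER folding members with hairpins all below controls was 9 to 14. Log2 fold changes turned sign in some members whose control range exceeded the fitted change. With 1 library left out these changes ranged from -0.019 to 0.49 for Asns, -0.18 to 0.10 for Atf4, -0.36 to 0.055 for Ddit3, -0.30 to 0.62 for Chac1, -0.35 to 0.37 for Trib3 and -0.14 to 0.53 for Slc7a11. Limma-voom gave 0.025 for Trib3. With 1 library left out, the mean difference over the 35 tested members, -0.035 in the main fit, ranged from -0.14 to 0.060. Over the 12 ATF4 targets the mean difference of 0.20 ranged from -0.054 to 0.44, and over the ER folding genes that of -0.22 ranged from -0.27 to -0.19. Alternatives on the further genes named, on shNS folds, on the separate ER folding genes and on the means of these 2 groups were chosen after seeing the data. No paired analysis was possible because the hairpin numbers name hairpins and the labels pair no libraries. Depth limits Vldlr, with at most 6 reads in a library, for which no change was detectable.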
